A study of Mus musculus with 15 samples.

Results

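The 10 genes described here encode coinhibitory receptors and closely related surface proteins of T cells: Tigit, Cd160, Pdcd1, Ctla4, Lag3, Havcr2, Btla, Cd200, Cd96 and Cd5. They were taken by symbol from a table of read counts for 49492 mouse genes, and all 10 symbols were found. The RNA came from CD4 T cells with the transgenic OT-II receptor, which recognises a peptide of ovalbumin (OVA), and the congenic marker CD45.1. The naive group was sorted as CD44 low, CD62L+ cells from superficial lymph nodes and spleens of untreated CD45.1×OT-II mice and was never transferred. The other 4 groups started as such naive cells and were injected into C57BL/6 (WT) or Batf3-/- mice, which carry CD45.2. After 24 h the recipients received 60 µg OVA plus 30 µg papain, a cysteine protease used as an adjuvant of type 2 responses, in the nose in 3 doses. On day 5 after immunization, CD44 high donor cells of the mediastinal lymph node, which drains the lung, were sorted into CD62L- and CD62L+ cells from each kind of recipient. Batf3 is a transcription factor needed for type 1 conventional dendritic cells, and the deletion was in the hosts, whose other dendritic cells remain. Each group had 3 libraries, 15 in all. The labels call them independent without tying any to an animal, so p-values reflect how these libraries spread. Ages of the mice are not given in the sources used here. Naive and primed cells also differed in organ, transfer and host, and these cannot be told apart from priming.

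Coinhibitory receptors are switched on or raised when T cells meet antigen and then restrain signalling from the T cell receptor and from CD28. CTLA-4 takes the ligands CD80 and CD86 from CD28, PD-1 (Pdcd1) recruits phosphatases when it meets PD-L1 or PD-L2, and LAG-3 binds MHC class II. BTLA and CD160 both bind HVEM, TIGIT and CD96 compete with the activating receptor CD226 for PVR (CD155), and TIM-3 (Havcr2) binds galectin-9 and CEACAM1. CD200 is itself a ligand, which acts through CD200R1 on other cells, and CD5 dampens T cell receptor signals and follows their strength. In lymph nodes, PD-1, TIGIT, CD200, BTLA and CD160 are carried by T follicular helper cells, and several are found on recently activated as well as on exhausted T cells.

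Library totals ran from 38082967 to 99380475 counts, and 19260 to 21331 genes had counts. Ribosomal RNA loci took 3.86 to 16.7% of counts. The 10 CD4 T cell markers were all detected in every group, with summed levels of 13990 to 21710 CPM (counts scaled to library size, on libraries scaled by edgeR's TMM). Cd44 averaged 24.2 CPM in naive cells and 153 to 256 CPM in the primed groups, and it served in the sort. The summed level of 16 B cell markers was 149 to 194 CPM in naive, 497 to 720 CPM in CD62L+, 70.0 to 81.1 CPM in WT CD62L- and 118 to 169 CPM in Batf3-/- CD62L- libraries. Most of it came from Cd74, H2-Ab1 and H2-Aa, with means of 277, 88.5 and 49.3 CPM in WT CD62L+ cells. The summed level of 10 CD8 T and NK cell markers was 84.7 to 97.7 CPM in naive and 44.2 to 59.4 CPM in primed libraries. Within this sum, Cd8b1 and Prf1 were lower and Klrb1c and Nkg7 higher in primed than in naive group means. In bulk RNA, fewer expressing cells and less RNA per cell cannot be told apart.

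In naive cells, 2 of the 10 genes made up most of the transcript. Dividing CPM by exon length in kilobases allows levels to be compared between genes, and on this scale Cd96 stood at 85.7 ± 5.3 and Cd5 at 70.0 ± 1.2 (SD, n = 3 here and throughout). Cd96 alone was 46.7% of the sum over the 10 genes and Cd5 38.1%. Btla followed at 17.4 ± 1.6 and Cd200 at 5.58 ± 0.86, while Ctla4 at 2.01 ± 0.37 and Pdcd1 at 1.52 ± 0.88 lay within each other's spread. Tigit, Cd160, Lag3 and Havcr2 were each below 0.5 CPM per kilobase.

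Primed cells differed in both the amount and the order. The sum over the 10 genes per library was 177 to 187 CPM per kilobase in naive, 1256 to 1381 in WT CD62L-, 963 to 976 in WT CD62L+, 1076 to 1141 in Batf3-/- CD62L- and 937 to 1001 in Batf3-/- CD62L+ libraries. In WT CD62L- cells Tigit led at 387 ± 64 CPM per kilobase, which was 29.1% of the sum, ahead of Lag3 at 187 ± 20 and Cd5 at 182 ± 17, which did not differ beyond their spread. In WT CD62L+ cells Cd5 led at 211 ± 13, followed by Lag3 at 151 ± 21 and Ctla4 at 150 ± 15, and Tigit ranked 8 of 10 at 47.3 ± 8.9, or 4.88% of the sum. In Batf3-/- CD62L- cells Lag3 at 192 ± 29, Cd5 at 191 ± 4.4 and Tigit at 185 ± 28 were level within their spread. Batf3-/- CD62L+ cells were led by Cd5 at 199 ± 20 and Lag3 at 173 ± 22, with Tigit again at rank 8 with 26.9 ± 6.8. The rank of a short transcript depends on the annotated length, and that of Tigit, 963 bases, is the shortest of the 10.

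**Figure D1:**
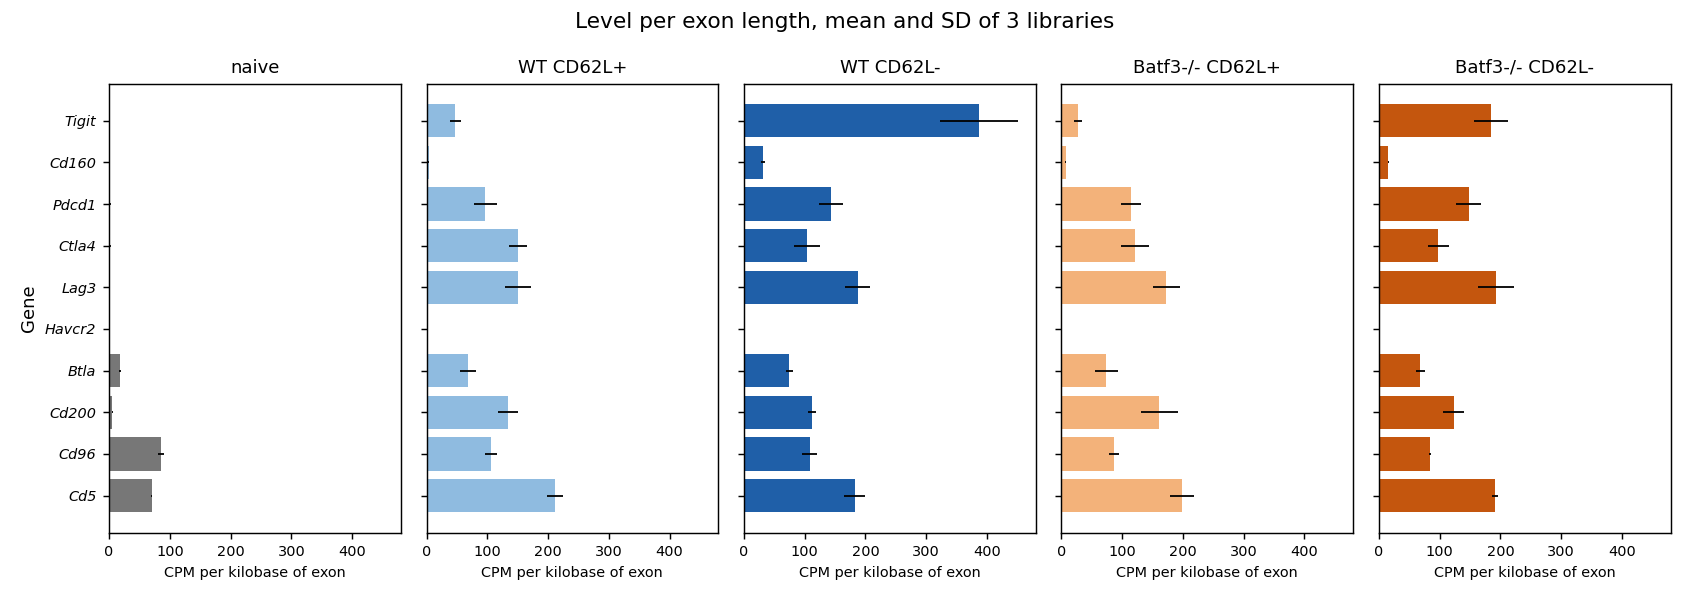
Mean level of each gene in CPM per kilobase of exon (horizontal bars, error bars SD of 3 libraries), 1 panel per group, all on the same linear axis from 0. Cd96 and Cd5 lead in naive cells, and Tigit reaches 387 in WT CD62L- cells.

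All 10 genes passed the filter on low counts. Against naive cells, the quasi-likelihood test of edgeR (Benjamini-Hochberg adjusted over 19942 genes threshold 0.05) called 9 of the 10 higher in WT CD62L- cells, where 16.9% of all genes were called higher and 13.2% lower. It called 9 higher in WT CD62L+ cells (all genes, 15.8% higher and 11.4% lower). For the Batf3-/- hosts it called 8 in the CD62L- group (16.5% and 12.8%) and 8 in the CD62L+ group (16.9% and 13.3%). None was called lower, nor was any lower at an unadjusted p under 0.05 in edgeR, and DESeq2 and limma's voom called none lower either. The median log2 fold change of the 10 genes was 5, 3.82, 4.82 and 4.46 in that order, beside -0.08, -0.01, 0.00 and 0 over all genes. The 4 comparisons share the naive libraries, so their results are not independent of each other, and the genes were chosen with earlier results of these data known.

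**Figure D2:**
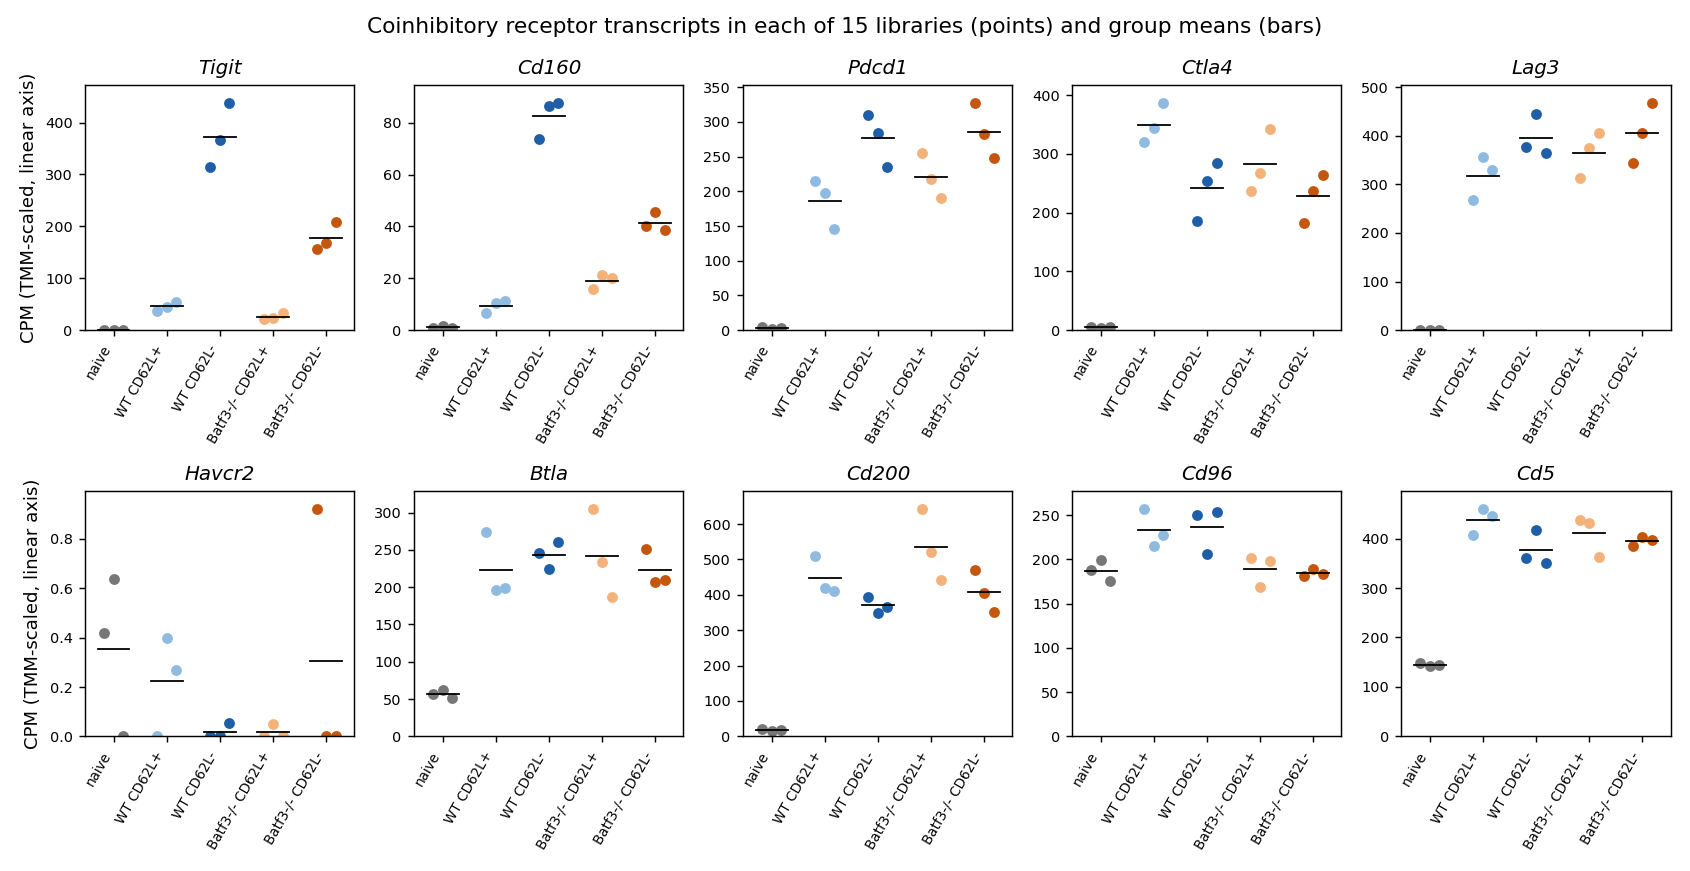
CPM of each gene in each of the 15 libraries (points) with group means (short bars), 1 panel per gene on its own linear axis from 0. Tigit and Cd160 differ between CD62L- and CD62L+ cells, whereas Pdcd1, Ctla4, Lag3, Btla, Cd200 and Cd5 are high in all 4 primed groups.

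Lag3, whose product binds MHC class II and lowers T cell receptor signalling, rose from near 0 in every primed group. Its naive libraries had 0.994, 0.270 and 0.886 CPM. The WT CD62L- libraries had 376, 444 and 365 CPM and the WT CD62L+ libraries 268, 355 and 329 CPM. Every primed library lay far above every naive one, including those from Batf3-/- hosts, which had 343, 406 and 467 CPM in CD62L- and 313, 374 and 406 CPM in CD62L+ cells. The log2 fold changes were 9.08 (SE 0.36) and 8.77 (SE 0.36) for WT CD62L- and CD62L+ cells, and 9.12 (SE 0.36) and 8.97 (SE 0.36) for the Batf3-/- counterparts, with edgeR adjusted p-values from 2.1e-10 to 3.49e-10. These folds rest on naive libraries with few Lag3 counts, the lowest with 22.

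Pdcd1, which encodes PD-1, and Ctla4 rose by similar amounts. Pdcd1 had 4.62, 1.22 and 2.94 CPM in naive cells, 310, 284 and 235 CPM in WT CD62L- and 216, 198 and 146 CPM in WT CD62L+ cells. In Batf3-/- hosts it had 327, 283 and 248 CPM in CD62L- and 255, 217 and 191 CPM in CD62L+ cells. The lowest primed library was thus far above the highest naive one, and the log2 fold changes were 6.55, 5.99, 6.60 and 6.23 (SE 0.38 to 0.39; WT CD62L-, WT CD62L+, Batf3-/- CD62L-, Batf3-/- CD62L+, the order used from here on). Ctla4 had 5.51, 3.77 and 4.77 CPM in naive cells, 186, 255 and 285 CPM in WT CD62L- and 320, 344 and 387 CPM in WT CD62L+ cells. Its Batf3-/- libraries had 183, 238 and 264 CPM in CD62L- and 237, 268 and 343 CPM in CD62L+ cells, and the log2 fold changes were 5.69, 6.22, 5.60 and 5.91 (SE 0.23 to 0.24). The mean of Ctla4 was highest in WT CD62L+ cells, whereas the 2 highest means of Pdcd1 were those of the CD62L- groups, which overlapped.

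Cd28, which shares its ligands with CTLA-4, also rose, by 1.12, 0.99, 0.88 and 0.80 on the log2 scale. Per exon length, the ratio of Ctla4 to Cd28 was 0.0282 in naive cells (range 0.0234 to 0.0344). It was 0.668 (0.577 to 0.763) in WT CD62L-, 1.06 (0.953 to 1.15) in WT CD62L+, 0.740 (0.683 to 0.804) in Batf3-/- CD62L- and 0.973 (0.965 to 0.978) in Batf3-/- CD62L+ cells. The transcript ratio was therefore higher in the CD62L+ cells of each host, without overlap of the libraries, a difference that was not tested.

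Btla and Cd5 started from clear naive levels and rose less. Btla had 57.3, 61.7 and 51.4 CPM in naive cells and 186 to 304 CPM over the 12 primed libraries, with log2 fold changes of 2.10, 1.97, 1.97 and 2.09 (SE 0.17). Cd5 had 148, 143 and 145 CPM in naive and 351 to 459 CPM in primed libraries, with log2 fold changes of 1.38, 1.59, 1.45 and 1.50 (SE 0.09). The primed groups overlapped one another for Btla, and for Cd5 all but WT CD62L+ and Batf3-/- CD62L- cells did. Cd200 rose more, from 21.4, 15.6 and 18.6 CPM in naive cells to 350 to 642 CPM in primed libraries (log2 fold changes 4.32, 4.59, 4.46 and 4.85, SE 0.17 to 0.18). B cells are known to express Btla and Cd200 as well, and the B cell marker sums were 497 to 720 CPM in CD62L+ and 70.0 to 169 CPM in CD62L- libraries. Btla had 244 ± 18 CPM in WT CD62L- and 223 ± 45 CPM in WT CD62L+ cells, and 223 ± 25 and 241 ± 59 CPM in the Batf3-/- counterparts. Cd200 had the lower mean in the CD62L- group of each host, as the B cell markers did. The part of B cell transcripts in the levels of Btla and Cd200 was not tested.

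**Figure D3:**
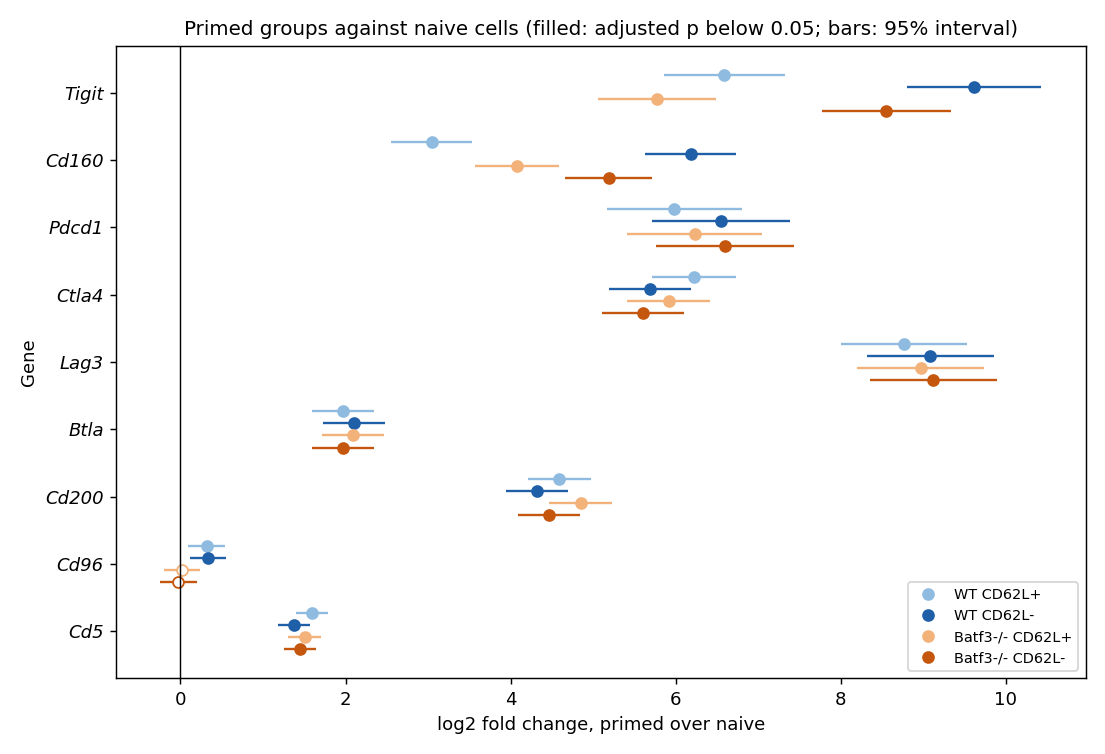
Log2 fold change of 9 genes in each primed group against naive cells (points; horizontal bars, 95% intervals), with filled points for adjusted p below 0.05. Lag3 lies between 8.77 and 9.12 in all 4 groups, Tigit ranges from 5.77 to 9.62, and Cd96 passes in the WT groups alone.

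Tigit had the widest range among the primed groups. Its naive libraries had 0.449, 0.221 and 0.751 CPM. The WT libraries had 314, 366 and 437 CPM in CD62L- and 37.2, 45.2 and 54.3 CPM in CD62L+ cells, and the Batf3-/- libraries 157, 169 and 209 CPM in CD62L- and 21.1, 23.4 and 33.4 CPM in CD62L+ cells. The 5 groups did not overlap, in the order WT CD62L-, Batf3-/- CD62L-, WT CD62L+, Batf3-/- CD62L+, naive. Against naive cells the log2 fold changes were 9.62 (SE 0.38), 6.59 (SE 0.34), 8.55 (SE 0.37) and 5.77 (SE 0.33), with edgeR adjusted p-values from 2.03e-10 to 1.37e-08. Cd226, which encodes the activating receptor for the same ligands, rose in the same comparisons by 0.39, 0.81, 0.62 and 1.05. Per exon length, the Tigit to Cd226 ratio was 0.0257 (0.0111 to 0.0421) in naive cells, 15 (12.7 to 16.7) in WT CD62L-, 1.38 (1.12 to 1.62) in WT CD62L+, 6.12 (5.90 to 6.30) in Batf3-/- CD62L- and 0.659 (0.567 to 0.824) in Batf3-/- CD62L+ cells. The library ranges of this ratio did not overlap between any 2 groups.

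Cd160, whose product is anchored to the membrane by a lipid and binds HVEM, was lower in level than Tigit but had a similar order in WT hosts. It had 0.994, 1.46 and 0.960 CPM in naive cells. In WT hosts it had 73.5, 86.4 and 87.5 CPM in CD62L- and 6.44, 10.6 and 11.2 CPM in CD62L+ cells, and in Batf3-/- hosts 40.2, 45.4 and 38.6 CPM in CD62L- and 16, 21.4 and 19.9 CPM in CD62L+ cells. No 2 groups overlapped, and the order was WT CD62L-, Batf3-/- CD62L-, Batf3-/- CD62L+, WT CD62L+, naive, so that the CD62L+ groups of the hosts changed places relative to Tigit. The log2 fold changes against naive cells were 6.18 (SE 0.26), 3.05 (SE 0.23), 5.19 (SE 0.25) and 4.07 (SE 0.24). Cd160 shares 68 exon bases with Pdzk1 on the opposite strand, and with the use of strand in counting not given, reads over them cannot be told apart. NK cells also express Cd160, Tigit and Cd96. Of the NK markers, Klrb1c averaged 23.9 and 25.9 CPM in the CD62L- and 7.56 and 12.6 CPM in the CD62L+ groups of WT and Batf3-/- hosts, Ncr1 was at 0 in 4 of the 5 groups, and Klra8 had no counts in 3 of the 4 primed groups. Nkg7 went the other way, with 7.52 and 11.2 CPM in the CD62L- and 12.8 and 13.4 CPM in the CD62L+ groups. Klrb1c and Nkg7 had 0.137 and 0.868 CPM in naive cells, so both were higher in every primed group mean. Gzma and Prf1 were lower in primed cells, with 4.67 and 32.1 CPM in naive cells and at most 0.339 and 0.715 CPM in primed group means. Klrb1c shares exon bases with Gm44511 on the same strand. The part of NK cell transcripts in the Cd160 result was not tested.

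Cd96, a receptor for PVR, changed little. It had 187, 199 and 175 CPM in naive cells, 250, 206 and 253 CPM in WT CD62L- and 256, 215 and 228 CPM in WT CD62L+ cells. In Batf3-/- hosts it had 181, 189 and 183 CPM in CD62L- and 201, 169 and 199 CPM in CD62L+ cells, within or close to the naive range, while all WT libraries were above it. It was called higher in WT CD62L- (log2 fold change 0.34, SE 0.10, edgeR adjusted p = 0.0224) and WT CD62L+ cells (0.32, SE 0.10, edgeR adjusted p = 0.0329). The Batf3-/- values were -0.02 (95% interval -0.24 to 0.20) and 0.02 (-0.20 to 0.24). Both calls ended when the first or the third naive library was left out, the first also without the third WT CD62L- library, alone or together with the third Batf3-/- CD62L- library (edgeR adjusted p = 0.054), and the second without the first or the third WT CD62L+ library, with edgeR adjusted p-values up to 0.0898 and 0.121, and voom did not call the first (adjusted p = 0.0683).

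Havcr2, which encodes TIM-3, was at the edge of detection. It had 44, 52 and 0 counts in the naive libraries, 0, 0 and 2 in WT CD62L-, 0, 38 and 16 in WT CD62L+, 86, 0 and 0 in Batf3-/- CD62L- and 0, 4 and 0 in Batf3-/- CD62L+ libraries. No group had a count in all 3 of its libraries, every group mean was below 0.5 CPM, and no comparison called the gene. Its ligand gene Lgals9 was present in all groups, at 270 ± 9.7 CPM in naive and 343 to 386 CPM in primed group means.

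Tigit, Btla, Cd200 and Cd96 lie near one another on chromosome 16. In the mm10 build, Tigit spans chr16:43648861-43664184 on the minus strand, Btla chr16:45224315-45252895 on the plus strand, Cd200 chr16:45382135-45409053 and Cd96 chr16:46035657-46120251, both on the minus strand. All 4 fall in a stretch of 2.47 megabases that holds 48 genes of the table, 33 of them protein coding in GENCODE M21. Of the other 29 protein-coding genes there, 22 were tested, and 1, 1, 1 and 2 were called higher than naive and 6, 6, 6 and 7 lower. Over all genes, 15.8 to 16.9% were called higher and 11.4 to 13.3% lower in these comparisons. The part of location in these calls was not tested. The other members lie on chromosomes 3 (Cd160, chr3:96798763-96829351), 1 (Pdcd1, chr1:94038305-94052553, and Ctla4, chr1:60887000-60915832), 6 (Lag3, chr6:124904361-124911705), 11 (Havcr2, chr11:46454935-46481255) and 19 (Cd5, chr19:10718143-10738974).

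The sort on CD62L separated cells of unequal Tigit and Cd160. Within WT hosts, Tigit was 8.18-fold higher in CD62L- than in CD62L+ cells (log2 difference 3.03, SE 0.27, edgeR adjusted p = 3.3e-05) and Cd160 8.78-fold (3.14, SE 0.22, edgeR adjusted p = 3.57e-06). Within Batf3-/- hosts, Tigit was 6.86-fold (2.78, SE 0.27, edgeR adjusted p = 0.000165) and Cd160 2.17-fold higher (1.12, SE 0.21, edgeR adjusted p = 0.0274). These were the 2 of 10 genes called in each host, against 0.672% of all genes called higher and 0.552% lower in WT hosts, and 0.286% and 0.216% in Batf3-/- hosts. All 3 CD62L- libraries were above all 3 CD62L+ libraries for both genes in both hosts. The Cd160 call in Batf3-/- hosts ended when any of the 6 libraries compared was left out (edgeR adjusted p = 0.0663 to 0.145), while its log2 difference stayed between 0.99 and 1.20. Since earlier results of these data led to the choice of genes, both Tigit calls and the WT Cd160 call are repeats and no independent support.

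The other genes showed smaller subset differences, none of which passed in edgeR. In WT hosts Ctla4 was lower in CD62L- cells, with 186 to 285 CPM against 320 to 387 CPM, no overlap, and a log2 difference of -0.53 (95% interval -0.94 to -0.13, edgeR adjusted p = 0.245, voom adjusted p = 0.0461). Cd200 was also lower there without overlap (-0.27, interval -0.60 to 0.05, edgeR adjusted p = 0.496). Pdcd1 (0.57, interval -0.08 to 1.22, edgeR adjusted p = 0.477, voom adjusted p = 0.0408) and Lag3 (0.32, interval -0.21 to 0.84, edgeR adjusted p = 0.681) were above without overlap. In Batf3-/- hosts Ctla4 differed by -0.31 (-0.71 to 0.09), Cd200 by -0.39 (-0.71 to -0.06), Pdcd1 by 0.37 (-0.28 to 1.02) and Lag3 by 0.15 (-0.37 to 0.68), and the libraries overlapped. Btla, Cd96 and Cd5 differed by at most 0.22 in size in either host, the largest being Cd5 in WT hosts at -0.22 (-0.41 to -0.02). The intervals allow differences of up to 1.22 on the log2 scale for Pdcd1. How many of all genes were without overlap between the subsets was not counted, so the separations carry no background, those of Tigit and Cd160 included. At an unadjusted p under 0.05, edgeR counted 4 of the 10 genes in WT and 3 in Batf3-/- hosts, beside 12.3% and 8.12% of all genes.

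**Figure D4:**
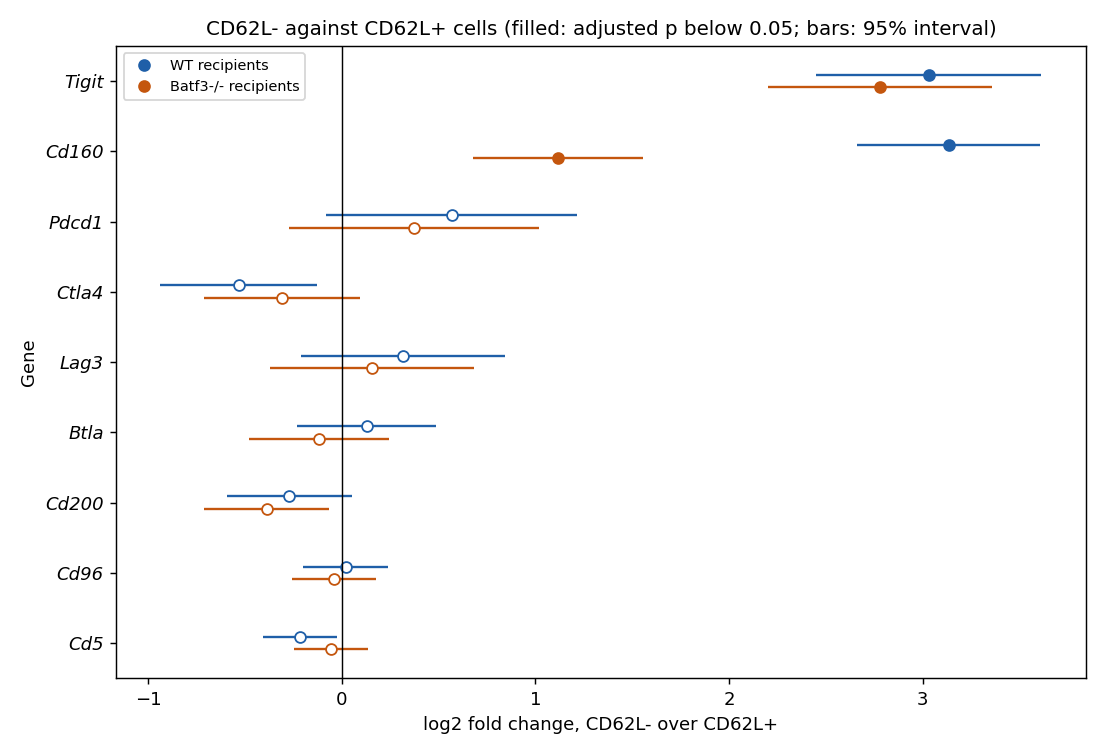
Log2 difference between CD62L- and CD62L+ cells for 9 genes in WT and Batf3-/- recipients (points; horizontal bars, 95% intervals), with filled points for adjusted p below 0.05. Tigit and Cd160 pass in both hosts, at 3.03 and 3.14 in WT and 2.78 and 1.12 in Batf3-/- hosts, while the other 7 genes lie between -0.53 and 0.57.

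The promoters of Tigit, Cd160 and Cd96, the 3 genes with an unadjusted p under 0.05 between hosts in each subset, are shown for reference, from RefSeq on build GRCm38.p6, as 250 bases before and 50 after the annotated start, 5′ to 3′ on the gene's strand. RefSeq entries were matched for 9 of the 10 genes (10 entries, 2 of them for Cd160), with Lag3 unmatched. Capitals mark matches on either strand to the NFAT core GGAAA, the AP-1 motif TGANTCA or the STAT motif TTCNNNGAA, whose factors act downstream of the T cell receptor and of cytokine receptors. The lines are Tigit (chr16:43664135-43664434, minus strand), the first and the second Cd160 start (chr3:96829302-96829601 and chr3:96814472-96814771, minus strand) and Cd96 (chr16:46120199-46120498, minus strand).
Tigit: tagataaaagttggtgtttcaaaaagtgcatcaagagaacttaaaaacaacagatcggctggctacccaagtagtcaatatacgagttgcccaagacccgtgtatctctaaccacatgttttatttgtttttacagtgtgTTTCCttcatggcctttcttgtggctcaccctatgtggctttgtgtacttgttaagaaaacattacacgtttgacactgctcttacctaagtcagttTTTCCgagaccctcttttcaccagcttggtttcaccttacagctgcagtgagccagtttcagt
Cd160 first start: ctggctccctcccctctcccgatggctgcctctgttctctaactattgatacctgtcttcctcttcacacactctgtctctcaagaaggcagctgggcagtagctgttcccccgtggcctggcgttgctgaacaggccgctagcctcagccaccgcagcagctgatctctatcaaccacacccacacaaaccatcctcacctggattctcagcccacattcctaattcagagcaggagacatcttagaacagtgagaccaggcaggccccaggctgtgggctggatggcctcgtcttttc
Cd160 second start: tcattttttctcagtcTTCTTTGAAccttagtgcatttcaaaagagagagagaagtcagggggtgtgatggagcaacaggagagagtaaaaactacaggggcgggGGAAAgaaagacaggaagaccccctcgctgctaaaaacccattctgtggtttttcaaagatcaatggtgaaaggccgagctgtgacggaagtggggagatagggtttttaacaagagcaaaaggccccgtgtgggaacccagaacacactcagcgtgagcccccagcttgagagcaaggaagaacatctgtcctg
Cd96: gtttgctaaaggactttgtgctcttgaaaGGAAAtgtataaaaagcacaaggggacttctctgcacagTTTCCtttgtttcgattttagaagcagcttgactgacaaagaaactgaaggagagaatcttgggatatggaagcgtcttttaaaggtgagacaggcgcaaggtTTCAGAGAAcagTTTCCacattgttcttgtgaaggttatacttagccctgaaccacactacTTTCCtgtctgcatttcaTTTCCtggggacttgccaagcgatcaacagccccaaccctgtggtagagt
Tigit held 2 NFAT core matches. The first Cd160 entry held none of the motifs, the second 1 NFAT core and 1 STAT match, and Cd96 5 NFAT core matches and 1 STAT match. No 2 matches shared bases. Of the 10 entries, 6 held an NFAT core, 1 the AP-1 motif (Havcr2) and 2 the STAT motif, beside 61.3%, 7.81% and 8.30% of 32851 mouse promoters of the same length. The Btla and Cd200 windows held none of the 3 motifs. These matches describe letters only and not binding.

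Tigit was lower in cells from Batf3-/- hosts. In CD62L- cells the difference from WT hosts was -1.07 on the log2 scale (95% interval -1.61 to -0.52, edgeR adjusted p = 0.154) and in CD62L+ cells -0.81 (interval -1.36 to -0.27, edgeR adjusted p = 0.578), with all 3 Batf3-/- libraries below all 3 WT libraries each time. DESeq2 (adjusted p = 0.00595) and voom (adjusted p = 0.00311) called Tigit in CD62L- cells, and neither called it in CD62L+ cells. Averaged over both subsets, the Tigit difference was -0.94 (SE 0.18, edgeR adjusted p = 0.0412), and Tigit was the 1 gene of 10 called, in a comparison that called 0.271% of all genes higher and 0.17% lower. This call ended without the third libraries of the WT and Batf3-/- CD62L- groups (edgeR adjusted p = 0.122), which had the highest mitochondrial shares of counts, 2.37% and 2.20%. Leaving out single libraries ended it in 10 of 15 cases: the first naive library, the second or the third WT CD62L-, any WT CD62L+, the first or the second Batf3-/- CD62L- and the first or the second Batf3-/- CD62L+ library, with edgeR adjusted p-values up to 0.123. The call on the average held in 12 of 23 other settings. The log2 difference stayed between -1.06 and -0.87 throughout, and the difference between the subsets in this host effect was -0.25 (interval -1.02 to 0.51).

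Cd160 values lay on opposite sides between hosts in the 2 subsets. In CD62L- cells the Batf3-/- libraries, at 38.6 to 45.4 CPM, were below the WT libraries, at 73.5 to 87.5 CPM (log2 difference -0.99, interval -1.43 to -0.56, edgeR adjusted p = 0.114). In CD62L+ cells they were above, at 16 to 21.4 against 6.44 to 11.2 CPM (1.03, interval 0.58 to 1.47, edgeR adjusted p = 0.162). The difference between these differences, tested as an interaction, was -2.02 (SE 0.29, interval -2.64 to -1.40). Its unadjusted p was 6.79e-06 in the edgeR model and its adjusted p 0.135, and the test called 0% of all genes. DESeq2 (adjusted p = 1.29e-07) and limma's voom (adjusted p = 0.00757) passed it, as did edgeR without the low-count filter (adjusted p = 0.0402), so the call depends on the method while the log2 value stayed between -2.16 and -1.83. Averaged over both subsets, Cd160 differed by 0.02 (interval -0.29 to 0.32).

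Cd96 had lower values in Batf3-/- hosts by a smaller amount, which did not pass. The difference was -0.36 (interval -0.58 to -0.14, edgeR adjusted p = 0.257) in CD62L- and -0.30 (interval -0.52 to -0.08, edgeR adjusted p = 0.688) in CD62L+ cells, without overlap of the libraries in either subset. The average was -0.33 (interval -0.48 to -0.17) and did not pass in edgeR (adjusted p = 0.071), whereas DESeq2 (adjusted p = 0.00125) and voom (adjusted p = 0.042) called it.

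Within each subset edgeR called 0 of the 10 genes between hosts, where it called 0.0501% of all genes in CD62L- and 0.00501% in CD62L+ cells. At an unadjusted p under 0.05 it counted 3 in each subset, Tigit, Cd160 and Cd96. Of all genes, 10.5% in CD62L- and 5.78% in CD62L+ cells were under that unadjusted threshold. The B cell marker sums differed between the hosts in CD62L- cells without overlap (70.0 to 81.1 CPM in WT and 118 to 169 CPM in Batf3-/- hosts), and their part in these differences was not tested. DESeq2 called these 3 in CD62L- cells and 1, Cd160, in CD62L+ cells, and voom called 2 and 1. Same-numbered CD62L+ libraries of the 2 hosts deviated together (correlations 0.149 to 0.231). With the replicate number as a block edgeR called Tigit (-0.83, edgeR adjusted p = 0.0492) and Cd160 (1.04, edgeR adjusted p = 0.0276) in CD62L+ cells. That block was fitted over all 15 libraries and not over these 6 alone, so it also covered groups with same-number correlations down to 0.0487. Libraries of the other members overlapped between hosts in both subsets. How many of all genes were without overlap between hosts was not counted. Averaged over subsets, Pdcd1 differed by 0.15 (interval -0.31 to 0.60), Ctla4 by -0.20 (-0.48 to 0.09), Lag3 by 0.12 (-0.25 to 0.49), Btla by -0.01 (-0.26 to 0.25), Cd200 by 0.20 (-0.03 to 0.43) and Cd5 by -0.01 (-0.15 to 0.12). The intervals of Btla and Cd5 leave room for less than 0.27 in either direction.

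**Figure D5:**
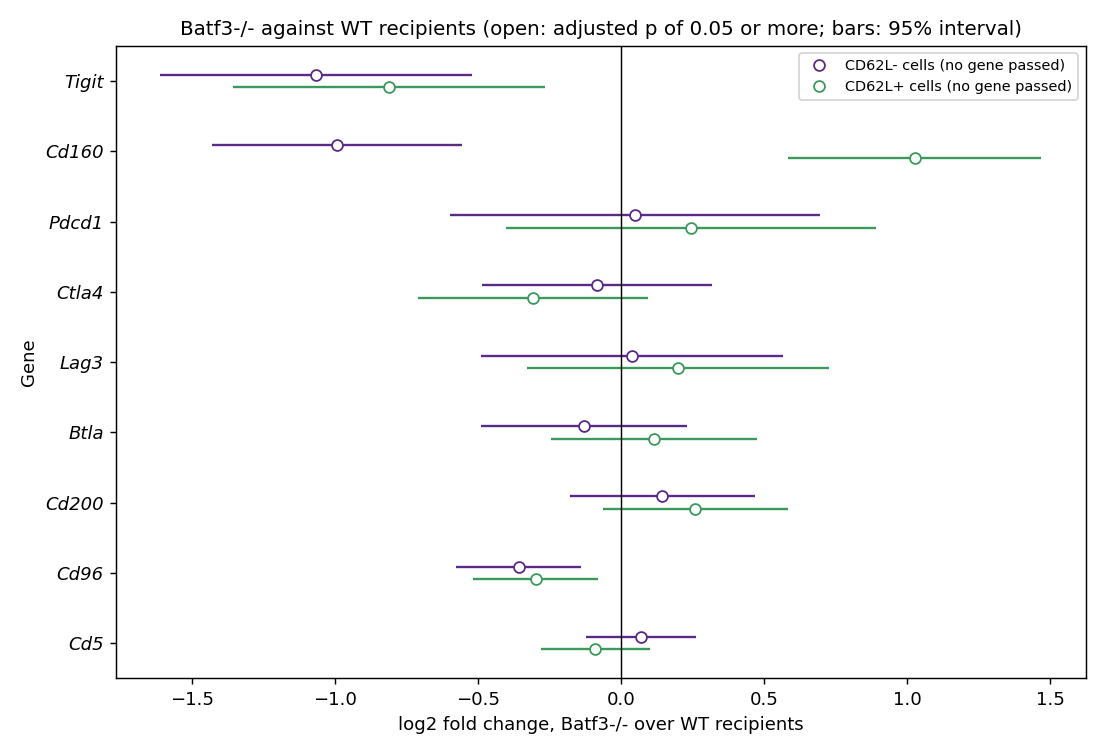
Log2 difference between cells from Batf3-/- and WT recipients for 9 genes in CD62L- and CD62L+ cells (points; horizontal bars, 95% intervals), all open because edgeR called none of them in a single subset without a replicate block. Cd160 is at -0.99 in CD62L- and 1.03 in CD62L+ cells, and Tigit and Cd96 are below 0 in both.

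Costimulatory receptors, the activating counterparts, changed in both directions. Of 17 tested, 9, 9, 8 and 8 were called higher than naive and 2, 3, 2 and 3 lower, with median log2 fold changes of 0.47, 0.37, 0.43 and 0.39. These counts and those of the lists below stand beside 15.8 to 16.9% of all genes called higher and 11.4 to 13.3% lower. Icos, a receptor needed for follicular helper cells, rose from 26.0 ± 3.7 CPM to 554 ± 75, 688 ± 86, 554 ± 70 and 608 ± 105 CPM, and Tnfrsf4 (OX40) from 3.09 ± 1.1 to 109 ± 14, 161 ± 23, 123 ± 15 and 173 ± 23 CPM. Slamf6, an adhesion receptor of the SLAM family, rose by 2.24, 2.09, 2.16 and 2.11, and Tnfrsf9 (4-1BB) by 3.71, 3.32, 3.85 and 4.30 on the log2 scale. Tnfrsf9 was also higher in Batf3-/- than in WT hosts on average (0.57, edgeR adjusted p = 0.0475). In CD62L+ cells it had 136 ± 8.1 CPM in Batf3-/- and 68.6 ± 7.2 CPM in WT hosts, while in CD62L- cells the hosts overlapped (82.3 to 113 and 80.2 to 106 CPM). In the subset comparison, Cd226 was lower in CD62L- cells by -0.42 (WT hosts, edgeR adjusted p = 0.0574) and -0.43 (Batf3-/- hosts, edgeR adjusted p = 0.0819), which did not pass.

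Of 16 tested ligands of these receptors, 6, 8, 3 and 5 were called higher than naive and 4, 1, 2 and 1 lower, with medians of 0.21, 0.73, 0.22 and 0.52. The shares called in Batf3-/- CD62L- cells were close to those over all genes (16.5% higher and 12.8% lower). Pdcd1lg2, which encodes PD-L2, rose from 0.517 ± 0.38 to 20.9 ± 0.84, 16.2 ± 1.1, 18.1 ± 2.3 and 17.2 ± 3.9 CPM, whereas Cd274 (PD-L1) was 86.6 ± 4.3 in naive and 82.2 to 103 CPM in primed group means. Pvr, the ligand of TIGIT, CD96 and CD226, fell by 1.64, 1.38, 1.42 and 1.43 on the log2 scale. Hmgb1 rose by 0.96, 0.68, 0.79 and 0.72 and Lgals9 by 0.35, 0.52, 0.48 and 0.46. The MHC class II genes H2-Aa and H2-Ab1, ligands of LAG-3 that also mark B cells, were lower in the CD62L- than in the CD62L+ group of WT hosts (-3.11 and -3.40) and Batf3-/- hosts (-2.26 and -2.45), and Cd72 in WT hosts (-1.30, edgeR adjusted p = 0.00768). H2-Aa and H2-Ab1 are themselves part of the B cell marker sums given above, so their agreement with those sums was fixed in advance. Cd72, which is not in the sums, averaged 6.84 CPM in WT CD62L- and 16.8 CPM in WT CD62L+ cells. In Batf3-/- hosts it averaged 7.61 and 14.8 CPM. The part of B cell transcripts was not tested. Cd72 shares exon bases with Tesk1 on the opposite strand, and Hmgb1 with Uspl1.

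Among 12 other inhibitory receptors tested, 1 was called higher in each comparison and 3, 1, 3 and 2 lower. The higher one was Cd6, a relative of Cd5, which rose by 0.62, 0.79, 0.63 and 0.73. Lair1, a collagen receptor, fell from 11.7 ± 1.0 CPM to means of 1.02 to 1.93 CPM. Ceacam1 fell to 0.0221 CPM in WT CD62L- and 0.204 CPM in Batf3-/- CD62L- cells from 2.76 ± 0.89 CPM, Klrd1 passed in WT CD62L- cells (3.73 ± 0.35 to 0.158 CPM), and Pecam1 in the Batf3-/- groups (-0.29 and -0.36).

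Of 23 genes that carry inhibitory signals, 13, 13, 12 and 11 were called higher and 3, 3, 3 and 4 lower. Over all genes, too, more were called higher than lower. Ptpn11, the phosphatase SHP-2 that binds PD-1, rose by 2.45, 2.43, 2.82 and 2.88, and Ptpn6, its relative SHP-1, by 0.72, 1.16, 0.81 and 1.07. Ubash3b, a phosphatase of the T cell receptor pathway, rose by 2.39, 2.22, 2.13 and 2.12, Sh2d1a, the adaptor SAP, by 1.78, 1.35, 1.50 and 1.01, and Ptpn22 by 1.37, 0.86, 1.02 and 0.66. Dgka, a diacylglycerol kinase, fell by 0.84, 0.66, 0.96 and 0.96. In WT hosts, Ptpn6 was lower (-0.44, edgeR adjusted p = 0.0195) and Ptpn22 higher (0.50, edgeR adjusted p = 0.0256) in CD62L- than in CD62L+ cells. Ptpn6 shares exon bases with Gm20531 on the opposite strand, Sh2d1a with Tenm1 and Dgka with Pmel, so their reads cannot be told apart.

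Of 13 tested genes for the surface handling of these receptors, 6, 4, 4 and 3 were called higher and 1, 1, 2 and 1 lower. Lax1, an adaptor, rose by 2.36, 2.05, 2.43 and 2.18 on the log2 scale. Trat1, an adaptor that keeps CTLA-4 at the surface, fell by 2.78, 2.66, 3.04 and 2.81. Adam10, a protease that sheds LAG-3, rose by 1.18, 0.86, 0.87 and 0.81, and Ap2m1, a clathrin adaptor subunit that takes CTLA-4 into the cell, by 0.71, 0.57, 0.69 and 0.59.

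Of 20 transcription factors linked to coinhibitory receptors, 15, 14, 16 and 15 were called higher than naive and 0, 1, 1 and 1 lower, with medians of 2.03, 1.70, 1.94 and 1.84. Maf rose from 1.87 ± 0.60 CPM to 142 ± 8.8, 96.1 ± 9.8, 132 ± 14 and 93.6 ± 1.9 CPM, and Tox2 from 0.254 ± 0.23 to 279 ± 53, 122 ± 27, 238 ± 77 and 112 ± 26 CPM. Tox rose by 1.75, 1.36, 1.66 and 1.40, Nr4a1 by 1.69, 1.64, 1.70 and 1.92, Nfatc1 by 3.55, 3.23, 3.43 and 3.37, Irf4 by 3.68, 4.34, 3.81 and 4.32, and Ikzf2, also a regulatory T cell marker, by 6.51, 5.69, 6.41 and 5.81. Bcl6, the regulator of follicular helper cells, rose by 2.31, 1.07, 1.96 and 1.10. Prdm1, its antagonist, had 11 ± 2.0 CPM in naive cells and fell to 0.258 ± 0.25, 0.429 ± 0.52 and 0.229 ± 0.20 CPM in WT CD62L+, Batf3-/- CD62L- and Batf3-/- CD62L+ cells, while the value in WT CD62L- cells, 1.56 ± 1.2 CPM, did not pass (edgeR adjusted p = 0.0692).

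Between subsets, 3 of these factors passed in WT hosts. Bcl6 (1.23, edgeR adjusted p = 8.81e-05) and Tox (0.40, edgeR adjusted p = 0.0336) were higher and Bach2 (-0.58, edgeR adjusted p = 0.0434) lower in CD62L- cells. In Batf3-/- hosts Bcl6 passed (0.86, edgeR adjusted p = 0.00441). Maf was higher in CD62L- cells by 0.57 and 0.50 and Tox2 by 1.20 and 1.09, but neither passed in either host. Tox, Maf, Bcl6, Bach2 and Ikzf2 share exon bases with Gm11802, Gm15655, Gm37419, Bach2os and Gm29114, in that order, on the opposite strand.

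Some regulatory T cells carry the same receptors. The summed level of 10 regulatory T cell markers was 103 to 112 CPM in naive and 1301 to 1632 CPM in primed libraries, but most of it came from Izumo1r (941 to 1043 CPM in primed group means) and Nrp1 (142 to 276 CPM). Foxp3, their defining factor, had 16.1 ± 2.5 CPM in naive and 7.71 to 9.74 CPM in primed group means, whereas Capg, named after its values were seen, rose from 27.8 ± 4.5 CPM to means of 132 to 277 CPM. Foxp3 shares exon bases with Ccdc22, Gm36995 and Ppp1r3fos. In each comparison with naive cells 5 of the 10 markers were called higher and 2 lower, and their part in the levels of the receptors was not tested.

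For each member described here, the 3 genes of 9250 candidates whose centred group means on the log2(CPM + 0.5) scale lay closest over the 5 groups are given as a description, by root mean square difference. For Tigit they were Sostdc1 (0.611), Vdr (0.616) and Il21 (0.765), all poor matches beside those of other members. Cd160 was closest to Il1r1 (0.221), with 24.0 ± 8.1 CPM in WT CD62L-, 2.31 ± 0.45 in WT CD62L+, 15.9 ± 5.6 in Batf3-/- CD62L- and 8.35 ± 3.8 in Batf3-/- CD62L+ cells. The means of Il1r1 were ordered like those of Cd160 over the 5 groups, with a wide spread. H2-Q2 (0.494) and Coro2b (0.526) followed. Lag3 was closest to Nt5e (0.143), which encodes CD73, then Angptl2 (0.284) and Endod1 (0.344).

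Ctla4 was closest to Mki67 (0.128), Ccnb2 (0.131) and Adam19 (0.153), and Cd200 to Hmmr (0.0972), Acot7 (0.116) and Nusap1 (0.144). Mki67, Ccnb2, Hmmr and Nusap1 are genes of dividing cells. Pdcd1 was closest to Slc9b2 (0.187), Cd83 (0.192) and Ttc39c (0.216). Among the matches given here, the closest were those of Cd5, by Reep5, Sesn3 and Cotl1 (0.0365 to 0.0455), and of Cd96, by Tatdn1, Cmas and Map4k4 (0.00762 to 0.0405). Havcr2 gives no usable match because all its group means lie below the added 0.5 CPM. Naive means also lay below 0.5 CPM for Tigit, Sostdc1, Vdr, Il21, Il1r1, Slc9b2, Ttc39c, Mki67 and Hmmr. The added value therefore shapes their matches and can hide unlike fold changes. Naive means were 2.92 CPM for Pdcd1, beside 0.00819 CPM for Slc9b2 and 0.0656 CPM for Ttc39c. Among the members themselves, the closest pairs apart from those with Havcr2 were Btla with Cd5 (0.244), Pdcd1 with Ctla4 (0.494) and Ctla4 with Cd200 (0.516).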

How the data were processed

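RNA of 15 sorted mouse CD4 T cell libraries, 3 in each of 5 groups, was amplified in 13 cycles before library preparation, per the labels' protocols. The submitters' processing notes name mm10 and, with no roles or order, STAR 2.7.3a, Trimmomatic 0.36, Subread 1.6.5, featureCounts and FastQC. The authors deposited raw counts per gene, without normalization. Annotation release and use of strand were not given in the sources used here. Even numbers made 66.6% of counts from 1 to 20, so mates may have been counted singly. Members, lists, tests and the rule for named genes were chosen with earlier results of these data known.

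With edgeR 4.0.16 in R 4.3.3, genes were kept by filterByExpr (minimum count 10, 19942 genes), libraries were scaled by TMM, and 1 quasi-likelihood model (robust) with a term per group was fitted to all 15 libraries. Contrasts were two-sided and Benjamini-Hochberg adjusted over all genes tested, with a threshold of 0.05. SE was derived as log2 fold change over the square root of F, and 95% intervals use the t quantile. A gene called means one past this threshold. The fit was tested on simulated data. Groups came from sample titles. Replicates of a group differed far more than counting allows (chi-square 42.4 to 642 per degree of freedom). Related genes were named as up to 4 called members of each list with the smallest adjusted p, plus 11 taken whatever their values. Alternatives were RLE scaling, no filter, a stricter filter, DESeq2 1.42.0, limma 3.58.1 voom, fewer groups, a replicate block, and libraries left out. Markers of 4 further cell types were checked, with these summed ranges over libraries: dendritic cells and macrophages 730 to 2330 CPM, mostly Ccr7, which T cells express, erythroid cells 612 to 710 in naive and 9.78 to 102 in primed libraries, stromal and endothelial cells 167 to 243, nearly all Pecam1, which T cells express, and neutrophils 0 to 1.73. Counting error is largest for Havcr2 and for Tigit and Lag3 in naive cells, whose lowest libraries had 18 and 22 counts. Replicate numbers pair the samples of 2 groups where every same-number correlation of deviations is over 0.1, which of the comparisons made held for the hosts in CD62L+ cells (0.149 to 0.231); the pairing comes from the data and not from the labels. The closest matches of Btla in expression pattern are not reported here.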

Additional observations from a re-analysis of the deposited data

Results flagged for a closer look

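One result stood out because the same host contrast went opposite ways in the 2 subsets. For Cd160, every Batf3-/- library was below every WT library in CD62L- cells and above every WT library in CD62L+ cells, and the difference between these log2 differences was -2.02 (95% interval -2.64 to -1.40). How many of all genes had such a pattern was not counted. The test of the difference itself gave an edgeR adjusted p of 0.135, and over all settings tried the adjusted p ran from 1.29e-07 to 0.622.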

How the results depend on the processing

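Over 23 other settings, no log2 fold change of the 50 followed reversed, 28 calls were lost and 20 gained. Counts of genes called against naive cells stayed at 8 or 9. With the numbers of called genes of the 10 as reported first, voom gave 4 in place of 2 for the subsets in WT hosts. For the subsets in Batf3-/- hosts (2), the count was 1 in a fit of the groups compared only and 1 without the third libraries of both CD62L- groups, and single libraries left out gave 1 to 2. For the hosts in CD62L- cells (0), DESeq2 gave 3 and voom 2, and in CD62L+ cells (0) both gave 1. For the host average (1), DESeq2 and voom gave 2, the fit without those libraries 0, and single libraries left out 0 to 1. For the interaction (0), no filter, DESeq2 and voom gave 1 each. The causes were not tested.

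Replicate numbers paired the samples by the rule used for the hosts in CD62L+ cells and not for the other comparisons made: of 30 same-number pairs between groups, 21 correlated above 0.1 in their deviations (0.0487 to 0.276), while other pairs gave -0.243 to 0.051, a hint from the data and not the design. With the replicate block, edgeR called 2 for the hosts in CD62L- cells (Tigit, adjusted p = 0.0117, and Cd160, adjusted p = 0.0231), 2 in CD62L+ cells (Tigit and Cd160), 2 for the host average (Tigit, adjusted p = 0.00156, and Cd96, adjusted p = 0.0335) and 1 for the interaction (Cd160, adjusted p = 0.0117). It changed no other call of the 10 genes. The block was fitted over all 15 libraries, including groups that the rule did not pair.

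Over all genes, the subset calls were 244 in WT hosts (824 with DESeq2, 473 with voom, 529 with the block) and 100 in Batf3-/- hosts (432, 334 and 197), and the host calls 10 in CD62L- (431, 79 and 74), 1 in CD62L+ cells (142, 70 and 32), 88 on average (620, 323 and 201) and 0 for the interaction (36, 1 and 1).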

Other observations

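For Tigit, Ctla4, Pdcd1 and Cd200, the libraries numbered 1 differed from the others in the same way in all 4 primed groups. In each, the first library had the lowest Tigit and Ctla4 and the highest Pdcd1 and Cd200 of its group, and the third had the highest Tigit and Ctla4 and the lowest Pdcd1. The other members were less regular. Cd160 and Lag3 were lowest in the first library in 3 of the 4 groups, Btla was highest there in 3, and Cd5 was highest in the second in 3. Ribosomal RNA loci took 3.86 to 5.26% of counts in the libraries numbered 1, 8.44 to 11.2% in those numbered 2 and 8.36 to 16.7% in those numbered 3. The labels do not say what the numbers share, and the part of ribosomal RNA in these values was not tested.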
